A study of Drosophila melanogaster with 6 samples.

Results

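The vacuolar ATPase (V-ATPase) subunit genes of Drosophila melanogaster were examined in RNA-seq libraries of whole larvae of the third instar, from mutants without HP1B, a chromosomal protein of the Heterochromatin Protein 1 family, and from their control. Members were all rows of the expression table whose gene symbol starts with Vha. The search found 33 genes among 16662 rows, none of them in a row shared with another gene, and all 33 were among the 10986 rows that passed the filter on low values. The study set 2 homozygous mutant stocks, HP1b16 and HP1b86, against the control strain yw, with 2 replicate libraries each and 6 libraries altogether. Both alleles are deletions made by imprecise excision of a P element, both remove the start codon of HP1b, and both mutants were backcrossed into the yw background, so each mutant genotype is 1 stock with its own excision event. Levels are given in FPKM, fragments per gene after scaling for the length of its transcripts and for the size of the library, and for each gene the values of replicates 1 and 2 are listed in that order.

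The V-ATPase is a rotary proton pump. Its cytosolic V1 sector hydrolyses ATP and turns a central stalk, and the membrane sector V0 uses this rotation to carry protons into an organelle or out of a cell. In every cell the pump acidifies lysosomes and endosomes, and in insects it is also placed in large amounts in the apical membrane of epithelia such as the Malpighian tubule and the midgut, where it energises the transport of other ions. Most subunits of the fly pump are encoded by small gene families, in which 1 gene serves most tissues and epithelia in particular while the other copies are expressed in few tissues.

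For each of 14 subunits, 1 gene was taken as the epithelial member from what is known of the family. The choice was made with earlier results of these data known. These 14 genes were Vha68-2 (A), Vha55 (B), Vha44 (C), Vha36-1 (D), Vha26 (E), Vha14-1 (F), Vha13 (G) and VhaSFD (H) of the V1 sector, Vha100-2 (a), Vha16-1 (c), VhaPPA1-1 (c double prime), VhaAC39-1 (d) and VhaM9.7-b (e) of the V0 sector, and the accessory subunit gene VhaAC45. The other 19 members were paralogs of these genes and VhaM8.9, which current annotation lists as ATP6AP2. The genes belonged to 13 subunit families, of which 8 had more than 1 gene, and VhaAC45 and VhaM8.9 stood outside them.

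HP1b itself stood at 2.55 and 3.13 FPKM in HP1b16, at 0.121 and 0.0403 FPKM in HP1b86 and at 22.8 and 24.2 FPKM in yw, so every library lay where its label placed it. The study describes an aberrant RNA from the locus in the HP1b16 stock. The FPKM of the 6 libraries summed to between 654430 and 1132180, with HP1b86 replicate 1 the highest. The median of the ratios of FPKM to the yw mean over all tested genes was 0.916 in HP1b86 replicate 1 and 1.13 in HP1b86 replicate 2, against 0.925 and 0.915 in the HP1b16 libraries. Tissue markers also differed, with 6 salivary gland genes summing to between 19183 and 45047 FPKM in the mutants and to 73877 and 60796 FPKM in yw, and 3 yolk protein genes to between 3.51 and 184 FPKM in the mutants and to 10.2 and 15.6 FPKM in yw. Of 6 fat body genes, 5 were listed at 0 in some libraries and at high levels in others, such as the larval serum protein gene Lsp2, listed at 0 in both HP1b16 libraries and at 16386 and 8705 FPKM in HP1b86 and 7602 and 8239 FPKM in yw. A value of 0 in such genes can be a failed estimate, so no sum is given for the fat body, and these rows are part of the summed FPKM of the libraries. The depth of the libraries is not in the table. The smallest steps between low FPKM values placed the libraries at an estimated 0.431 to 1.31 times the depth of yw replicate 1, with HP1b86 replicate 1 the shallowest. The study's methods state a single range of collected reads for all samples, which is narrower than the range of these estimates. Whether the replicate libraries were made from different batches of larvae is not given in the sources used here, so p-values measure the spread between these libraries, which may be technical.

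The 14 epithelial genes were higher in every mutant library than in either yw library, as were 24.4% of all tested genes. Their median level was 1.76 and 2.38 times the yw mean in HP1b16 and 2.66 and 1.72 times the yw mean in HP1b86, with single genes between 1.43 and 3.64 times the yw mean. None of the 14 passed the threshold of an adjusted p of 0.05 in the limma fit across all genes, although 13 of 14 in HP1b16 and 14 of 14 in HP1b86 were higher at an unadjusted p under 0.05, where 14.9% and 17.4% of all tested genes were. In whole larvae, a change in the amount of RNA per cell and a change in the share of cells that carry the pump cannot be told apart.

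In the V1 sector, Vha68-2, which encodes the catalytic subunit A that binds and splits ATP, measured 222 and 316 FPKM in HP1b16 and 350.3 and 199 FPKM in HP1b86, against 96.7 and 108 FPKM in yw. Vha55 encodes subunit B, which alternates with A in the catalytic ring, and measured 273 and 384 FPKM in HP1b16 and 428 and 264 FPKM in HP1b86, against 123 and 149 FPKM in yw. Vha55 was above Vha68-2 in every library, and the lowest mutant value of each was well above its highest yw value. The log2 fold change of FPKM + 1 between the average of the mutants and yw was 1.37 ± 0.29 for Vha68-2 and 1.28 ± 0.27 for Vha55 (standard errors from limma, with adjusted p = 0.0627 for each).

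The genes for the stalks and regulatory subunits of V1 were likewise higher in every mutant library. Vha26, for subunit E of the peripheral stalks, measured 279 and 393 FPKM in HP1b16 and 367 and 249 FPKM in HP1b86, against 149.7 and 174 FPKM in yw. Vha13, for subunit G, which pairs with E, measured 599.6 and 816 FPKM in HP1b16 and 1010.0 and 648 FPKM in HP1b86, against 338 and 384 FPKM in yw. Vha13 and the proteolipid gene Vha16-1 had the highest levels of all members in every library. Vha36-1 encodes subunit D of the central rotor and measured 197 and 265 FPKM in HP1b16 and 290.1 and 177 FPKM in HP1b86, against 121 and 126 FPKM in yw. Vha14-1, for subunit F of the same rotor, measured 234 and 322 FPKM in HP1b16 and 418 and 234 FPKM in HP1b86, against 159 and 149 FPKM in yw. Vha14-1 was the 1 epithelial gene with an unadjusted p above 0.05 in HP1b16 (adjusted p = 0.230 from limma), although all its mutant libraries were above both yw libraries. Vha44 encodes subunit C, which joins V1 to V0 and leaves when the pump comes apart, and it measured 130.4 and 175 FPKM in HP1b16 and 174 and 114 FPKM in HP1b86, against 59.3 and 76.1 FPKM in yw. VhaSFD, for the regulatory subunit H, measured 135 and 171 FPKM in HP1b16 and 172 and 132 FPKM in HP1b86, against 82.5 and 91.9 FPKM in yw. It had the smallest change of the 14 genes, with a log2 value of 0.79 ± 0.18 for the average of the mutants (standard error from limma, adjusted p = 0.0667).

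In the V0 sector, Vha16-1 encodes the proteolipid c of the rotor ring and measured 671 and 888 FPKM in HP1b16 and 875 and 583 FPKM in HP1b86, against 316 and 433 FPKM in yw. VhaPPA1-1, for the related ring subunit c double prime, measured 164 and 219.8 FPKM in HP1b16 and 280.5 and 184 FPKM in HP1b86, against 90.6 and 102 FPKM in yw. In both ring genes the groups did not overlap. VhaAC39-1, for subunit d, which couples the central stalk to the ring, measured 153 and 204 FPKM in HP1b16 and 222 and 143 FPKM in HP1b86, against 83.3 and 86.7 FPKM in yw. VhaM9.7-b, for the small membrane subunit e, measured 274 and 331 FPKM in HP1b16 and 412 and 285 FPKM in HP1b86, against 171 and 155 FPKM in yw. These V0 genes had log2 fold changes between 0.98 and 1.10 for the average of the mutants, with adjusted p between 0.0595 and 0.0883 from limma.

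Both accessory genes were also above yw in all mutant libraries. VhaAC45, whose product is a membrane glycoprotein bound to V0, measured 222 and 299 FPKM in HP1b16 and 332 and 214 FPKM in HP1b86, against 112 and 124 FPKM in yw. VhaM8.9, whose mammalian counterpart is the prorenin receptor, measured 217 and 279.8 FPKM in HP1b16 and 332 and 221 FPKM in HP1b86, against 124 and 143 FPKM in yw. Their log2 fold changes were 1.15 and 0.95 for the average of the mutants (adjusted p = 0.0616 and 0.0743 from limma). VhaM8.9 was not placed in the epithelial set, but it was highest in HP1b86 replicate 1 and lowest in yw replicate 1, as VhaAC45 was.

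**Figure D1:**
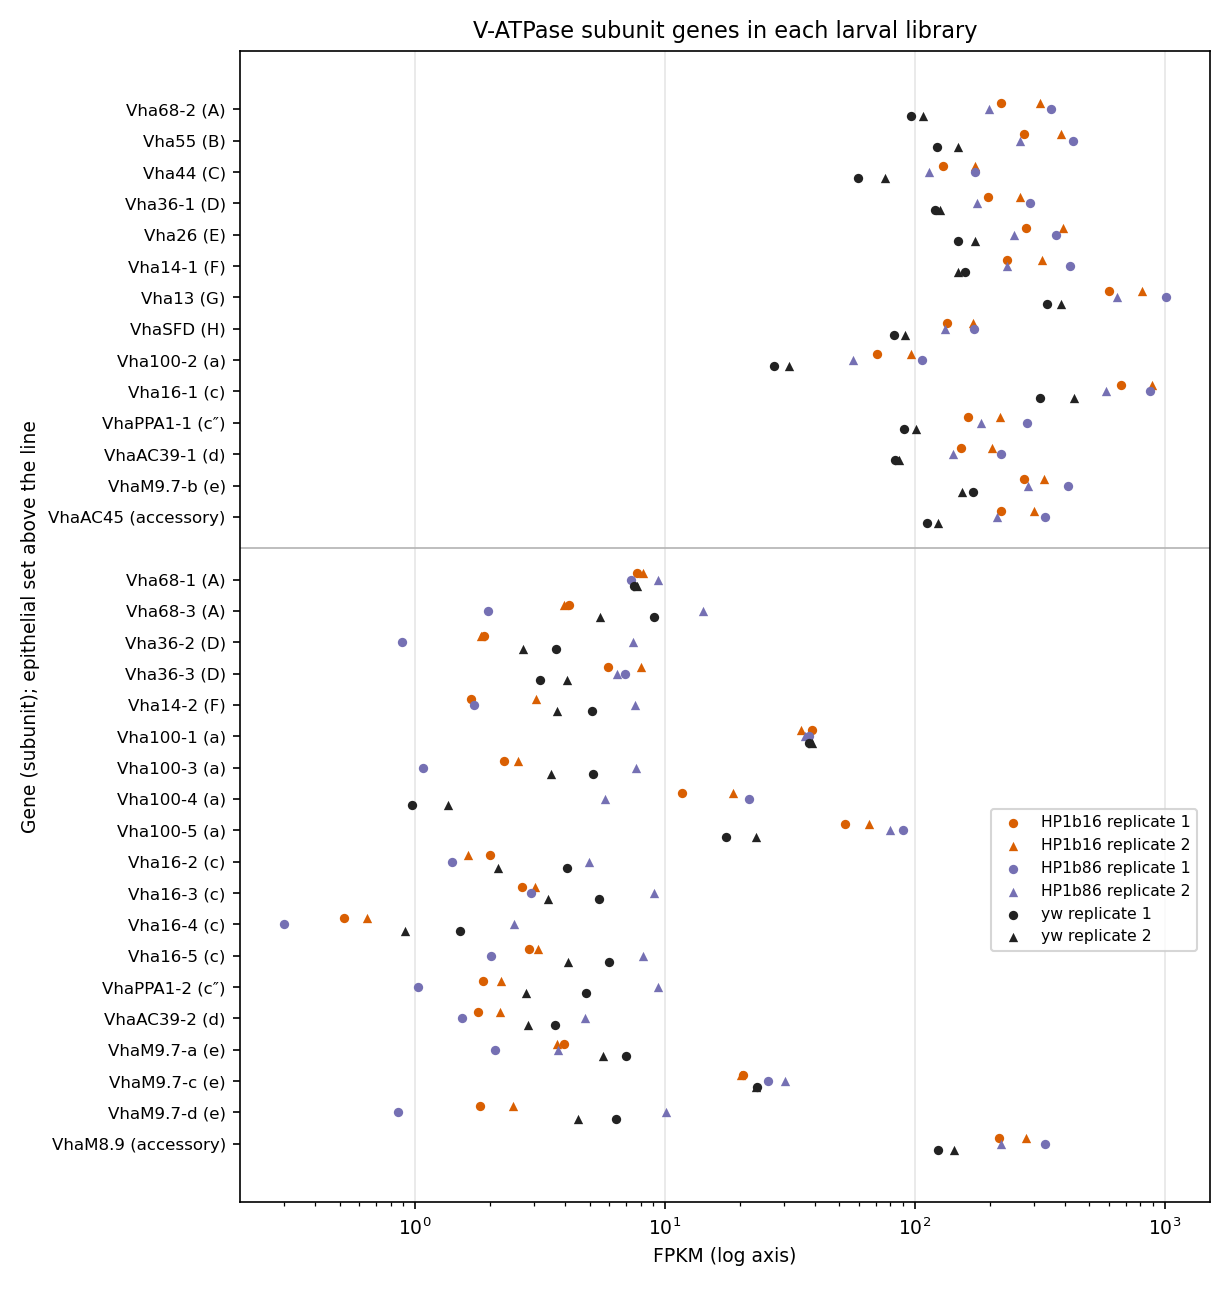
FPKM of the 33 V-ATPase genes in each library on a log axis, with the epithelial set above the line and the other members below it; colours mark the genotype, circles replicate 1 and triangles replicate 2. In the 14 epithelial genes all 4 mutant points lie to the right of both yw points, and most of the low genes have HP1b86 replicate 2 farthest to the right.

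The 14 epithelial genes varied together among libraries of 1 genotype. In HP1b16 all 14 had more in replicate 2, in HP1b86 all 14 had more in replicate 1, and 12 of 14 were higher in yw replicate 2 than in replicate 1. The shares of all tested genes with these orders were not counted. In HP1b86 the summed FPKM of the library was higher in replicate 1, at 1132180 against 874571. The median ratio of all tested genes to the yw mean was higher in HP1b86 replicate 2, at 1.13 against 0.916. Relative to the yw mean, the 14 epithelial genes lay between 1.52 and 2.40 in HP1b16 replicate 1, between 1.96 and 3.28 in HP1b16 replicate 2, between 1.97 and 3.64 in HP1b86 replicate 1 and between 1.43 and 1.95 in HP1b86 replicate 2. Vha100-2 had the highest of these ratios in 3 of the 4 mutant libraries and Vha68-2 in HP1b86 replicate 2. The V1 and V0 sectors stood close together. The median ratio in the HP1b16 libraries was 1.69 and 2.34 for the 8 V1 genes and 1.80 and 2.38 for the 6 V0 and accessory genes, and in the HP1b86 libraries it was 2.64 and 1.61 for V1 and 2.72 and 1.78 for V0 and accessory genes.

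Markers of several tissues were also higher in the mutants. The summed FPKM of 9 Malpighian tubule markers was 262 and 371 in HP1b16 and 459 and 181 in HP1b86, against 139 and 122 in yw, and 6 of the 9 were higher in all mutant libraries than in both yw libraries, as were 24.4% of all tested genes. Much of the change in this sum came from Uro, the urate oxidase gene, whose row it shares with CG7164, at 110 and 170.0 FPKM in HP1b16 and 237 and 55.3 FPKM in HP1b86, against 18.9 and 22.5 FPKM in yw. The summed FPKM of the 9 markers had the same order of mutant libraries as the median level of the 14 epithelial genes. The median ratio of the 9 markers to their yw mean had another order, at 1.65 and 2.56 in HP1b16 and 1.97 and 1.98 in HP1b86. The sum of 7 midgut enterocyte markers was 3781 and 4549 in HP1b16 and 8741 and 6232 in HP1b86, against 1644 and 1647 in yw, with 5 of 7 higher in all mutant libraries. The sum of 8 muscle markers was 9594 and 12048 in HP1b16 and 10798 and 6122 in HP1b86, against 1608 and 2795 in yw, with 7 of 8 higher in all mutant libraries. In the limma test for the average of the mutants, 0 of the 9 tubule markers, 5 of the 7 midgut markers and 4 of the 8 muscle markers were called higher, as were 4.68% of all tested genes. The sum of 8 neuronal markers went the other way in part, at 59.4 and 49.5 in HP1b16 and 41.9 and 39.4 in HP1b86, against 57.0 and 76.6 in yw. No marker of these lists was at 0 in any library, and their part in the level of the V-ATPase genes was not tested.

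Across all members, 18 of 33 were higher in all 4 mutant libraries than in both yw libraries, where 24.4% of all tested genes were. They were the 14 epithelial genes, Vha100-4, Vha100-5, Vha36-3 and VhaM8.9. VhaM9.7-a was the 1 member lower in all 4 mutant libraries, where 19.8% of all tested genes were. When FPKM were scaled to a common sum per library, 17 members were higher in all mutant libraries, against 12.7% of all tested genes, with all 14 epithelial genes among them, and 4 were lower, namely VhaM9.7-a, Vha68-1, Vha100-1 and VhaM9.7-c, against 43.4% of all tested genes. Under quantile normalization 17 were higher, without Vha16-1, against 16.9% of all tested genes, and VhaM9.7-a and Vha100-1 were lower, against 24.2%.

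In the test of each genotype, limma called 0 of 33 members in HP1b16 against yw, where it called 0.0182% of all tested genes, and 1 of 33 in HP1b86 against yw, where it called 4.03%. For the average of the mutants it called 1 of 33, against 6.38% of all genes. At an unadjusted p under 0.05, 17 members in HP1b16, 19 in HP1b86 and 19 for the average of the mutants passed, where 23.7%, 30.0% and 31.1% of all tested genes did. Of the 14 epithelial genes, 13, 14 and 14 were higher at this level, and among all tested genes 14.9%, 17.4% and 18.4% were. The comparisons with yw share their yw libraries. The median log2 fold change of the 14 genes was 1.04 in HP1b16, 1.07 in HP1b86 and 1.06 for the average of the mutants, against -0.10, -0.0048 and -0.08 for all tested genes.

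The number of calls depended on which libraries shared the estimate of the spread. When only the HP1b16 and yw libraries were fitted, limma called 20 members, where it called 21.7% of all genes, and 18 of them were higher and included all 14 epithelial genes, against 13.8% of all genes called higher. Without HP1b86 replicate 2 the average of the mutants gave 27 calls, where 46.0% of all genes were called, with 18 members higher, all 14 epithelial genes among them, and 20.4% of all genes higher. Without HP1b86 replicate 1 it gave 13 calls, where 16.1% of all genes were called, with 12 members higher, 9 of them epithelial, and 11.6% of all genes higher. With any 1 of the yw or HP1b16 libraries left out, this comparison gave no calls among all genes. In those fits the median log2 fold change of the 14 epithelial genes was 0.95 to 1.17, against -0.10 to -0.03 for all tested genes.

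**Figure D2:**
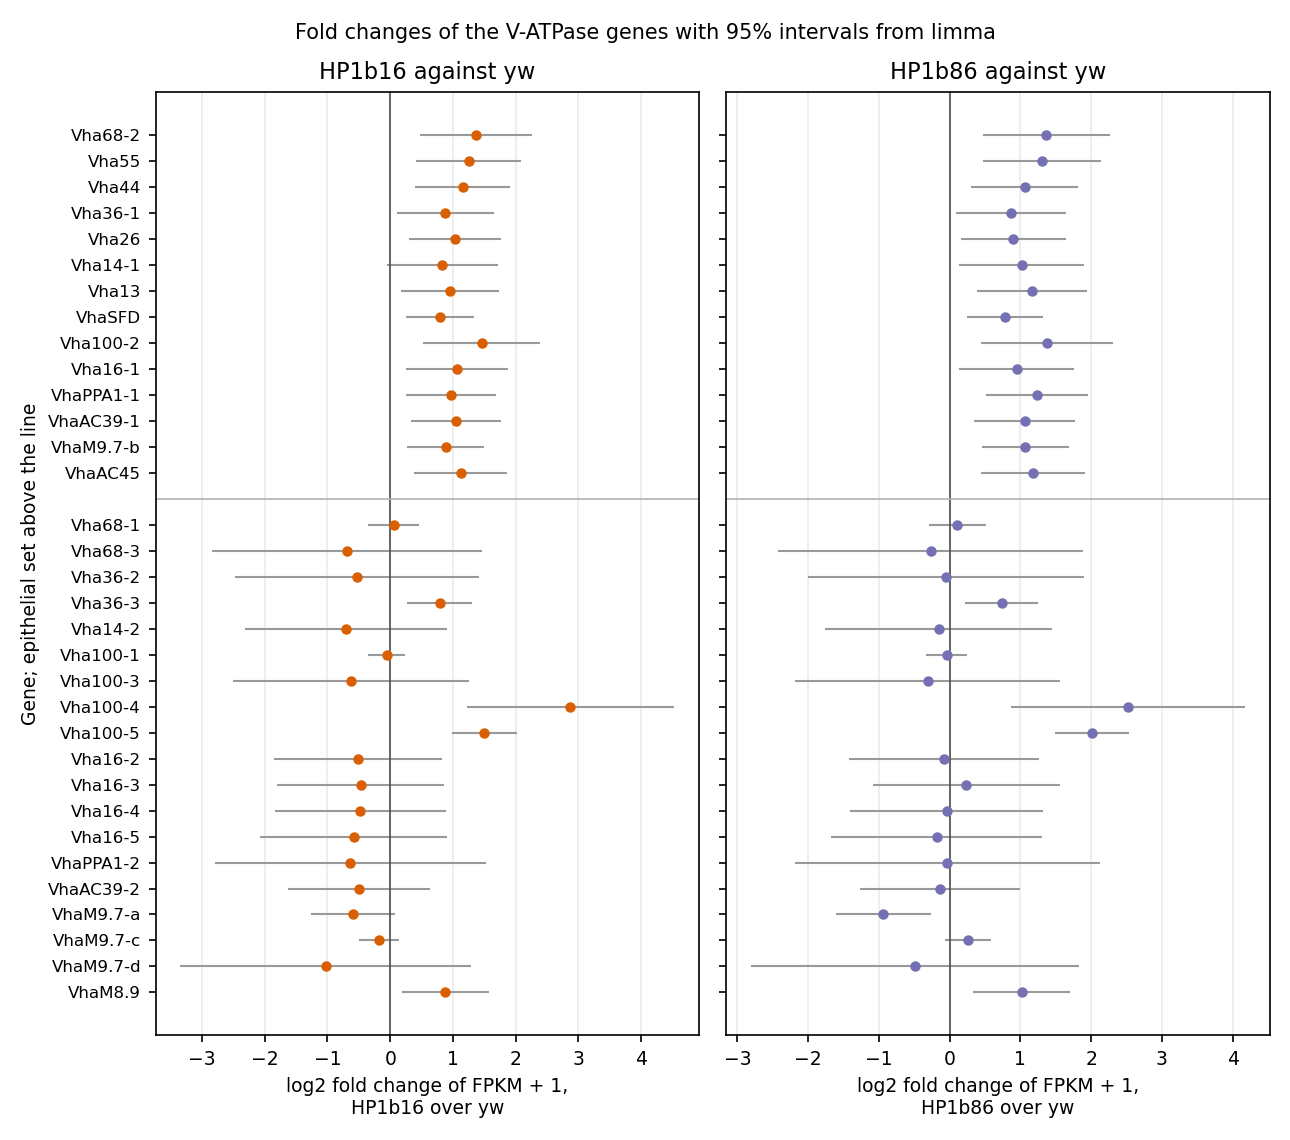
Log2 fold change of FPKM + 1 for the 33 genes in HP1b16 over yw and in HP1b86 over yw, with 95% intervals from limma as grey lines and the epithelial set above the line. The 14 epithelial genes lie between 0.78 and 1.46 in both panels, while intervals of most low paralogs are wide and reach across 0.

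In HP1b16 against HP1b86, limma called 0 of 33 members and 0.00910% of all genes. At an unadjusted p under 0.05 from limma, 1 of 33 members passed, where 7.90% of all tested genes did. For the 14 epithelial genes the log2 difference of HP1b16 over HP1b86 ran from -0.26 for VhaPPA1-1 (95% interval -0.98 to 0.46) to 0.13 for Vha26 (95% interval -0.60 to 0.87). With intervals of this width the alleles were not shown to act alike. The member past the unadjusted level was VhaM9.7-c, described with the other subunit e genes.

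Subunit a, the large V0 subunit that forms the proton path with the c ring and directs the pump to its membrane, was the family whose make-up differed most between mutants and yw. Vha100-5 measured 52.8 and 65.9 FPKM in HP1b16 and 90.0 and 79.9 FPKM in HP1b86, against 17.6 and 23.2 FPKM in yw. All mutant libraries were above both yw libraries, and both HP1b86 libraries were above both HP1b16 libraries. Vha100-5 rose in HP1b86, by a log2 fold change of 2.02 (adjusted p = 0.0410 from limma, with a standard error of 0.20), and for the average of the mutants, with a log2 fold change of 1.76 ± 0.17 (adjusted p = 0.0312). In HP1b16 alone the log2 fold change was 1.50 ± 0.20 (adjusted p = 0.0690), and the difference of HP1b16 over HP1b86 was -0.52 ± 0.20 (adjusted p = 0.635 from limma). Without 1 of the yw or HP1b16 libraries the adjusted p in HP1b86 was between 0.114 and 0.308, with a log2 fold change between 1.83 and 2.21, and for the average of the mutants between 0.0970 and 0.324. With the replicate number as a block the adjusted p for Vha100-5 was 0.136 in HP1b86 and 0.108 for the average of the mutants. In HP1b86 its adjusted p from limma was 0.0530 with median-ratio scaling, 0.0398 after scaling to a common sum and 0.0211 under quantile normalization. With only the HP1b86 and yw libraries fitted, 0 of all tested genes were called.

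Vha100-2, the epithelial member of the family, measured 70.7 and 96.7 FPKM in HP1b16 and 107 and 56.7 FPKM in HP1b86, against 27.4 and 31.5 FPKM in yw. It had the largest log2 fold change of the 14 epithelial genes, at 1.42 ± 0.31 for the average of the mutants (adjusted p = 0.0631 from limma). Vha100-4, which in the fly has been linked to acid secretion by the copper cells of the midgut, measured 11.7 and 18.7 FPKM in HP1b16 and 21.6 and 5.78 FPKM in HP1b86, against 0.972 and 1.36 FPKM in yw. The mutant libraries of Vha100-4 were 10.04, 16.0, 18.5 and 4.95 times the yw mean, the highest ratio of any member in each library. Its log2 fold change was 2.70 ± 0.54 for the average of the mutants (adjusted p = 0.0571 from limma). Vha100-4 passed the threshold in that comparison with a pseudocount of 0.1, after scaling to a common sum and after quantile normalization. It did not pass with median-ratio scaling, without a filter, without the trend or with the replicate number as a block. With a minimum mean of 5 FPKM it also passed, but it met that filter only through the mutant libraries, so that call adds no support. Of 3 markers of the copper cell region, lab, a homeobox gene that marks these cells, was also higher in every mutant library, at 1.53 and 2.11 FPKM in HP1b16 and 2.51 and 1.51 FPKM in HP1b86, against 1.13 and 0.972 FPKM in yw. The groups overlapped for Ptx1 and dve, the 3 markers summed to 14.1 and 15.4 FPKM in HP1b16 and 14.9 and 13.9 FPKM in HP1b86, against 13.0 and 13.5 FPKM in yw, and 0 of the 3 passed the test. The part of copper cells in the level of Vha100-4 was not tested.

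Vha100-1, known in the fly for its work in neurons and at synapses, measured 38.8 and 34.9 FPKM in HP1b16 and 37.9 and 36.5 FPKM in HP1b86, against 37.9 and 38.8 FPKM in yw. The groups overlapped and the log2 difference for the average of the mutants was -0.05 (95% interval -0.30 to 0.20, adjusted p = 0.758 from limma). The sign depended on the scaling, at 0.03 with median-ratio scaling, while after scaling to a common sum and under quantile normalization Vha100-1 was lower in all mutant libraries than in both yw libraries, with -0.46 and -0.27 for the average of the mutants (adjusted p = 0.0900 and 0.243 from limma). Vha100-3 was low, at 2.27 and 2.58 FPKM in HP1b16 and 1.08 and 7.69 FPKM in HP1b86, against 5.16 and 3.52 FPKM in yw, and its mutant libraries lay on both sides of yw.

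The make-up of the subunit a transcripts differed between the genotypes. Vha100-1 gave 22.0% and 16.0% of the summed FPKM of the 5 paralogs in HP1b16 and 14.7% and 19.6% in HP1b86, against 42.5% and 39.4% in yw. Vha100-5 gave 29.9% and 30.1% in HP1b16 and 34.9% and 42.8% in HP1b86, against 19.8% and 23.6% in yw. For Vha100-1 all mutant shares were lower than both yw shares, and for Vha100-5 all were higher. Vha100-4 gave 6.64% and 8.54% in HP1b16 and 8.39% and 3.10% in HP1b86, against 1.09% and 1.39% in yw. Vha100-2 gave 40.1% and 44.2% in HP1b16 and 41.6% and 30.4% in HP1b86, against 30.8% and 32.0% in yw, so its shares overlapped. The mean share of Vha100-1 was 22.9 percentage points lower in the mutants, and that of Vha100-5 was 12.8 points higher (exact permutation test, two-sided, p = 0.133 for each, which is the smallest p that 4 against 2 libraries can give). A share within a family does not depend on how a library is scaled as a whole.

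**Figure D3:**
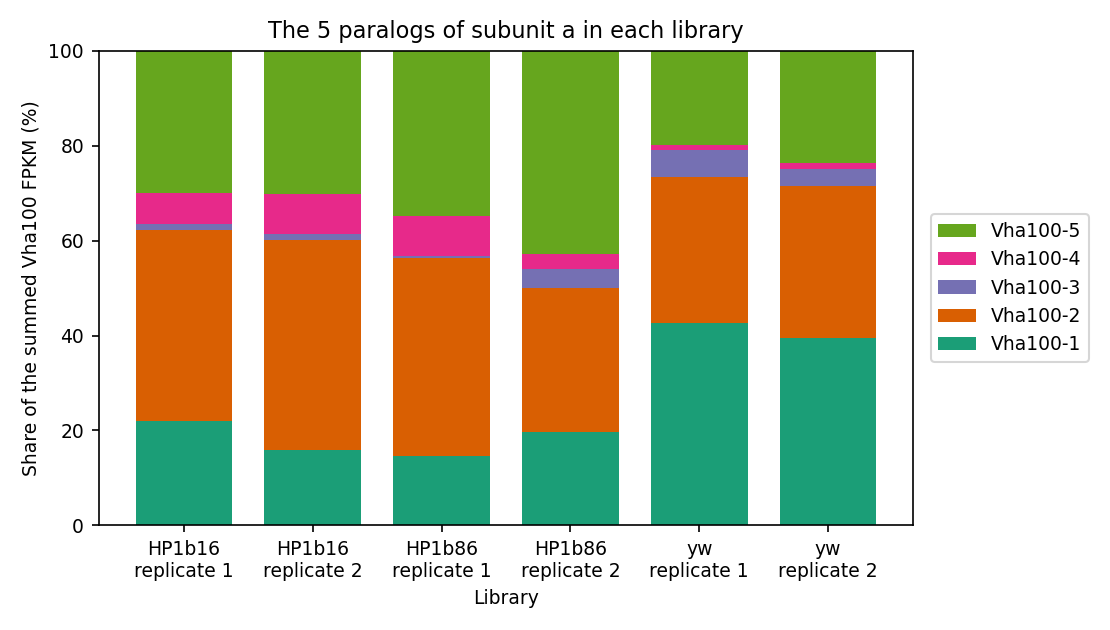
Share of the summed FPKM of the 5 Vha100 genes (%) taken by each gene, 1 bar per library. Vha100-1 takes between 14.7% and 22.0% in the mutant libraries and 39.4% and 42.5% in yw, and Vha100-5 takes a larger share in every mutant library than in either yw library.

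In the other families with paralogs, the epithelial gene supplied nearly all of the transcript. Its share lay between 82.3% for VhaM9.7-b in yw replicate 2 and 99.6% for VhaPPA1-1 in HP1b86 replicate 1. The shares of Vha68-2 were 94.9% and 96.3% in HP1b16 and 97.4% and 89.4% in HP1b86, against 85.3% and 89.0% in yw, and those of VhaM9.7-b were 91.2% and 92.6% in HP1b16 and 93.5% and 86.5% in HP1b86, against 82.3% in each yw library. In both families the mutant shares lay above the yw shares (exact permutation test, two-sided, p = 0.133 for each). For Vha36-1, Vha14-1, Vha16-1, VhaPPA1-1 and VhaAC39-1 the share in HP1b86 replicate 2 lay within or below the yw range. The summed level of each of the 13 families was between 1.75 and 2.48 times as high in the mean of the mutant libraries as in the mean of the yw libraries, lowest for H and highest for B.

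The low paralogs followed another order of libraries. They were the 15 members with a mean under 15 FPKM over all libraries, a limit set after the values were seen, with Vha100-4 just inside at 10.02 FPKM and VhaM9.7-c just outside at 23.9 FPKM. Of the 15, 12 were highest in HP1b86 replicate 2, as were 29.7% of all tested genes, and 10 were at the same time lowest in HP1b86 replicate 1, as were 17.4% of all tested genes. Vha16-4 passed the filter on low values only through HP1b86 replicate 2. With the filter set on the other 5 libraries, a choice made after seeing the data, 11 of 14 low paralogs were highest in HP1b86 replicate 2, as were 28.8% of all tested genes, and 9 of 14 were also lowest in HP1b86 replicate 1, as were 16.7%. None of the 14 epithelial genes was highest in HP1b86 replicate 2.

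Among the catalytic subunit paralogs, Vha68-3 measured 4.14 and 3.94 FPKM in HP1b16 and 1.96 and 14.3 FPKM in HP1b86, against 9.09 and 5.52 FPKM in yw. The HP1b86 libraries lay on either side of all others, and the HP1b16 libraries were below both yw libraries. Vha68-1 was nearly even, at 7.77 and 8.16 FPKM in HP1b16 and 7.31 and 9.40 FPKM in HP1b86, against 7.53 and 7.72 FPKM in yw. In the rotor families, Vha36-2 measured 1.89 and 1.84 FPKM in HP1b16 and 0.890 and 7.49 FPKM in HP1b86, against 3.66 and 2.70 FPKM in yw, and Vha14-2 measured 1.67 and 3.04 FPKM in HP1b16 and 1.72 and 7.57 FPKM in HP1b86, against 5.12 and 3.71 FPKM in yw. Both had the HP1b86 libraries on opposite sides of yw. Vha36-3, the other subunit D paralog, went with the epithelial genes instead, at 5.94 and 8.04 FPKM in HP1b16 and 6.91 and 6.42 FPKM in HP1b86, against 3.17 and 4.06 FPKM in yw. Its log2 fold change was 0.76 ± 0.17 for the average of the mutants (adjusted p = 0.0656 from limma).

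The 4 low proteolipid paralogs were all highest in HP1b86 replicate 2, and 3 of them were lowest in HP1b86 replicate 1, while Vha16-3 was lowest in HP1b16 replicate 1. Vha16-2 measured 1.99 and 1.63 FPKM in HP1b16 and 1.41 and 4.95 FPKM in HP1b86, against 4.07 and 2.16 FPKM in yw. Vha16-3 measured 2.69 and 3.02 FPKM in HP1b16 and 2.93 and 9.09 FPKM in HP1b86, against 5.47 and 3.42 FPKM in yw. All HP1b16 values of both were below the yw values, and HP1b86 replicate 2 was above them. Vha16-4, the lowest member of all, measured 0.519 and 0.644 FPKM in HP1b16 and 0.301 and 2.48 FPKM in HP1b86, against 1.52 and 0.911 FPKM in yw. Vha16-5 measured 2.86 and 3.12 FPKM in HP1b16 and 2.01 and 8.16 FPKM in HP1b86, against 5.97 and 4.11 FPKM in yw. The second copies for c double prime and d behaved likewise. VhaPPA1-2 measured 1.87 and 2.21 FPKM in HP1b16 and 1.03 and 9.40 FPKM in HP1b86, against 4.86 and 2.78 FPKM in yw, and VhaAC39-2 measured 1.78 and 2.19 FPKM in HP1b16 and 1.55 and 4.79 FPKM in HP1b86, against 3.63 and 2.84 FPKM in yw. In HP1b86 replicate 2 they stood above every other library, and in HP1b86 replicate 1 below every other.

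For subunit e, VhaM9.7-d measured 1.82 and 2.46 FPKM in HP1b16 and 0.857 and 10.1 FPKM in HP1b86, against 6.38 and 4.49 FPKM in yw. It had the widest gap between the HP1b86 libraries of the 3 subunit e paralogs. VhaM9.7-a, by contrast, measured 3.95 and 3.70 FPKM in HP1b16 and 2.09 and 3.72 FPKM in HP1b86, against 7.02 and 5.66 FPKM in yw, so that all mutant libraries were below both yw libraries (log2 fold change -0.77 ± 0.22 for the average of the mutants, adjusted p = 0.0986 from limma). VhaM9.7-c measured 20.5 and 20.3 FPKM in HP1b16 and 25.9 and 30.4 FPKM in HP1b86, against 23.3 and 23.2 FPKM in yw. The mutants lay on opposite sides of the control, an order whose share among all tested genes was not counted. After scaling to a common sum VhaM9.7-c was lower in all mutant libraries than in both yw libraries, with a log2 fold change of -0.32 in HP1b86 and -0.37 for the average of the mutants.

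None of the 12 low paralogs that were highest in HP1b86 replicate 2 passed the threshold against yw in the fit of all 6 libraries. Their log2 fold changes ran from -1.03 for VhaM9.7-d to 0.06 for Vha68-1 in HP1b16 and from -0.49 for VhaM9.7-d to 0.24 for Vha16-3 in HP1b86. With only the HP1b16 and yw libraries fitted, VhaM9.7-d was called lower in HP1b16, where 21.7% of all genes were called in either direction. These 12 were picked for having their highest value in HP1b86 replicate 2, which favours genes with a wide spread and makes a call less likely. Leaving that library out lowers their mutant values by construction, and the direction in HP1b86 turned with the library used. Without HP1b86 replicate 2, 12 of 33 members had all remaining mutant libraries below both yw libraries, where 41.0% of all tested genes were. They were 11 of these 12 paralogs, without Vha68-1, and VhaM9.7-a.

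Testis markers followed the same libraries. The summed FPKM of 12 testis markers was 224 and 227 in HP1b16 and 134 and 866 in HP1b86, against 531 and 298 in yw. All 12 were highest in HP1b86 replicate 2, as were 29.7% of all tested genes. In HP1b86 replicate 1, 11 of 12 were lowest, as were 34.0% of all tested genes. No testis marker was at 0 in any library, and their part in the level of the low paralogs was not tested. HP1b86 replicate 1 also had the lowest estimated depth, at 0.431 times that of yw replicate 1, and the part of depth was not tested either. A V-ATPase gene listed under another symbol, CG5421, a paralog of VhaAC45, was likewise highest in HP1b86 replicate 2, at 1.11 and 1.14 FPKM in HP1b16 and 1.23 and 3.52 FPKM in HP1b86, against 2.76 and 1.62 FPKM in yw. The related CG31030 was even by comparison, at 3.97 and 4.04 FPKM in HP1b16 and 3.79 and 3.15 FPKM in HP1b86, against 4.66 and 3.99 FPKM in yw.

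**Figure D4:**
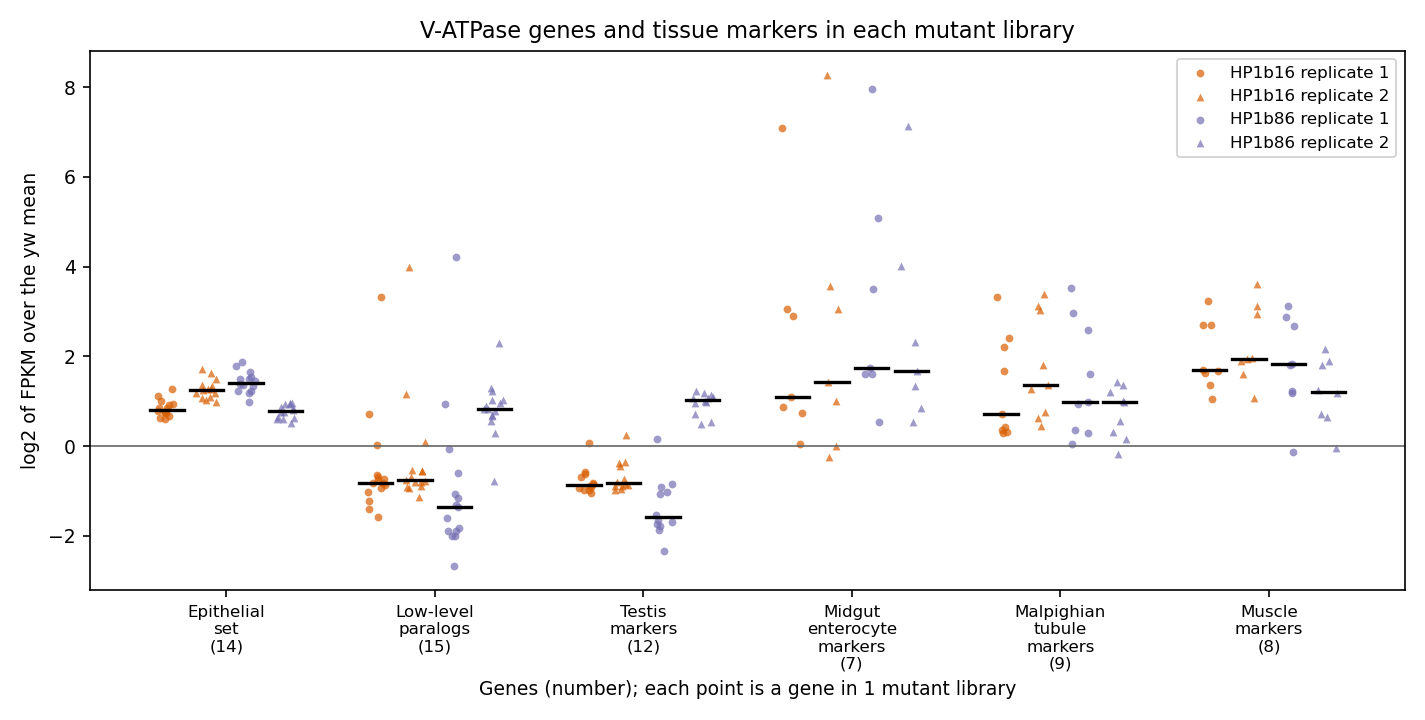
Log2 of FPKM over the yw mean for each gene of the 14 epithelial V-ATPase genes, the 15 low paralogs and 4 lists of tissue markers in each mutant library, with a black line at the median of each set and library. The epithelial genes lie above 0 in all 4 libraries, while most low paralogs and testis markers lie below 0 in the HP1b16 libraries and HP1b86 replicate 1 and above 0 in HP1b86 replicate 2.

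The genes also differed in structure. In the current Ensembl annotation, all 33 members were found, and the coding sequence lay in a single exon in 3 of the 14 epithelial genes and in 8 of the 15 low paralogs, among them 7 of the 12 that were highest in HP1b86 replicate 2. Neighbouring members were Vha68-2 and Vha68-3, Vha100-2 and Vha100-4, and Vha16-2 and Vha16-3. Of the 33 members, 10 overlapped another annotated gene, among them Vha44, VhaSFD, Vha100-2, Vha100-4 and Vha100-5. Whether the counting used the strand of the reads is not given in the sources used here, so reads of such pairs may not be told apart, and reads shared by near-identical paralogs may have been divided between them.

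Of 4 genes listed for assembly and regulation of the pump, 1 was the member VhaM8.9, which was above yw in all mutant libraries as described with the accessory genes. The other genes were Rbcn-3A and Rbcn-3B, which in the fly promote its assembly, and Mitf, the transcription factor that drives V-ATPase genes in the fly. They had log2 fold changes of -0.17, -0.04 and 0.04 for the average of the mutants, and 0 of the 3 passed the test. Mitf measured 16.2 and 16.7 FPKM in HP1b16 and 15.6 and 12.6 FPKM in HP1b86, against 13.9 and 15.7 FPKM in yw, with overlapping groups. Of 19 tested lysosomal genes, 0 were called higher and 1 lower for the average of the mutants, where 4.68% and 1.70% of all tested genes were. At an unadjusted p under 0.05 from limma, 1 was higher and 6 were lower, where 18.4% and 12.7% of all tested genes were. The median log2 fold change was -0.13, against -0.08 for all tested genes. The gene called lower was Ppt2, a lysosomal thioesterase. It measured 30.1 and 26.2 FPKM in HP1b16 and 26.9 and 26.3 FPKM in HP1b86, against 40.3 and 44.4 FPKM in yw (log2 fold change -0.61 ± 0.11, adjusted p = 0.0497 from limma).

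Of 30 genes for ion and water transport across epithelia, 1 was called higher and 0 lower for the average of the mutants, where 4.68% and 1.70% of all tested genes were. At an unadjusted p under 0.05, 15 were higher and 3 lower, where 18.4% and 12.7% of all tested genes were, and the median log2 fold change was 0.36. The gene that rose was Prestin, an anion transporter of the SLC26 family, at 20.6 and 24.7 FPKM in HP1b16 and 24.6 and 20.6 FPKM in HP1b86, against 8.51 and 9.60 FPKM in yw (log2 fold change 1.23 ± 0.14, adjusted p = 0.0336 from limma). The calls for Prestin and Ppt2, like all other calls in this comparison, were lost with the replicate number as a block and with any 1 of the yw or HP1b16 libraries left out, where 0 of all tested genes were called. The median log2 fold change of the 14 epithelial V-ATPase genes, 1.06, stood beside 0.93 for the Malpighian tubule markers, 1.40 for the midgut markers and 1.71 for the muscle markers, and the differences between these medians were not tested.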

How the data were processed

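Larvae of the third instar from HP1b16, HP1b86 and yw were measured by RNA-seq, and groups and replicate numbers were taken from the labels. The deposited values are FPKM. Per the labels and the study's methods, the authors converted reads with bcl2fastq 2.18.0.12, trimmed them with Trim Galore 0.4.1, aligned them to dm3 with TopHat2 2.1.1 and computed FPKM with Cufflinks 2.2.1. The gene annotation, any further scaling between libraries and the strand setting are not given in the sources used here. FPKM keep no read counts, so counting intervals could not be given, and the relative depths are estimates from the steps between low values. The table has 16662 rows, 1604 of them at 0 throughout, and 626 rows name several genes.

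Rows averaging 1 FPKM or more (10986) were tested on log2(FPKM + 1) in R 4.3.3 with limma 3.58.1, fitting the 6 libraries together, with a mean-variance trend and 1.59 prior and 3 residual degrees of freedom. Benjamini-Hochberg adjustment was made across all tested rows, and the threshold was 0.05. Fold changes on this scale understate the change of low genes. Shares within a subunit family were compared by an exact permutation test over libraries. The procedure was tested on simulated data.

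The members, the epithelial set, the related gene lists and the markers were chosen with earlier results of these data known. The genes named are all members, the genes of the assembly list, V-ATPase genes under other symbols, and the genes of the other lists that passed the threshold. Gene structure came from Ensembl release 115, whose build differs from dm3, so no coordinates are given, and no sequence was printed. Alternatives were scaling to a common sum (TPM), median-ratio scaling, quantile normalization, a pseudocount of 0.1, no filter, a minimum of 5 FPKM, only the groups compared, no trend, a replicate block and leaving out each library.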

Additional observations from a re-analysis of the deposited data

Results flagged for a closer look

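VhaM9.7-c, a paralog for subunit e, measured 20.5 and 20.3 FPKM in HP1b16, 25.9 and 30.4 FPKM in HP1b86 and 23.3 and 23.2 FPKM in yw. Both HP1b16 libraries were below both yw libraries, and both HP1b86 libraries were above them, so the mutants lay on opposite sides of the control. The share of all tested genes with this order was not counted. The log2 difference of HP1b16 over HP1b86 was -0.44 ± 0.12 (standard error from limma, unadjusted p = 0.0178, adjusted p = 0.579), which did not pass the threshold over all genes. In this comparison 7.90% of all tested genes had an unadjusted p under 0.05 from limma. In the current annotation VhaM9.7-c overlaps other genes, and after scaling to a common sum its log2 fold change in HP1b86 against yw was -0.32.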

How the results depend on the processing

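In HP1b16 against yw the number of members called by limma was 0, and it was 1 under quantile normalization (4.02% of all genes called), 20 with only the HP1b16 and yw libraries in the fit (21.7%), and 0 to 20 when 1 library was left out, with 20 without HP1b86 replicate 1 (21.7%) and also without HP1b86 replicate 2 (21.6%). In HP1b86 against yw it was 1, and it was 3 with TPM scaling (18.9% of all genes), 0 with median-ratio scaling, 0 with only the groups compared, and 0 to 25 when 1 library was left out, with 25 without HP1b86 replicate 2 (42.6%). For the average of the mutants it was 1, and it was 2 with TPM scaling (11.1% of all genes), 7 under quantile normalization (11.3%), 2 with a pseudocount of 0.1 (8.05%), 2 with a minimum of 5 FPKM (11.6%), and 0 to 27 when 1 library was left out, with 27 without HP1b86 replicate 2 (46.0%) and 13 without HP1b86 replicate 1 (16.1%). In HP1b16 against HP1b86 it was 0, and 0 to 10 when 1 library was left out, with 10 without HP1b86 replicate 1 (18.3% of all genes). In such fits the lone library is assumed to vary like the other genotypes. With the replicate number as a block, 0 members were called in every comparison. Deviations of same-numbered libraries had correlations of -0.115 between HP1b16 and HP1b86, 0.0740 between HP1b16 and yw and -0.401 between HP1b86 and yw. With 2 libraries per genotype, the correlation for unlike numbers is the same value with its sign reversed. These values therefore cannot show whether any libraries shared a batch.

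The count of 18 members above yw in all mutant libraries was 17 to 19 under the scalings tried. The share of all tested genes above yw ran from 12.7% to 26.9% under these scalings. Leaving out a library can only keep or raise this count, so those runs do not test how stable it is. All these settings were chosen after seeing the data. The median log2 fold change of the 14 epithelial genes for the average of the mutants, 1.06, was 0.64 with TPM scaling and 0.55 under quantile normalization, where the median of all genes was -0.45 and -0.15, and it was 0.90 to 1.22 when 1 library was left out.

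Directions turned only in the other members. With TPM scaling the log2 fold change of Vha68-1 was -0.16 in HP1b16, -0.43 in HP1b86 and -0.30 for the average, that of Vha16-3 was -0.25 in HP1b86, and that of VhaM9.7-c was -0.32 in HP1b86 and -0.37 for the average. With median-ratio scaling Vha100-1 was at 0.054 in HP1b16, 0.013 in HP1b86 and 0.033 for the average. Under quantile normalization VhaPPA1-2 was at 0.021 in HP1b86 and VhaM9.7-c at -0.11 for the average. When 1 library was left out, Vha100-1 in HP1b16 ran from -0.13 to 0.019, and in HP1b86 the range was -0.054 to 0.27 for Vha68-1, -1.45 to 0.91 for Vha68-3, -1.14 to 1.03 for Vha36-2, -0.98 to 0.67 for Vha14-2, -1.35 to 0.72 for Vha100-3, -0.73 to 0.57 for Vha16-2, -0.45 to 0.92 for Vha16-3, -0.75 to 0.67 for Vha16-4, -0.99 to 0.62 for Vha16-5, -1.21 to 1.14 for VhaPPA1-2, -0.73 to 0.46 for VhaAC39-2 and -1.78 to 0.80 for VhaM9.7-d. For the average of the mutants the range was -1.07 to 0.11 for Vha68-3, -0.84 to 0.25 for Vha36-2, -0.99 to 0.047 for Vha100-3, -0.64 to 0.044 for Vha16-2, -0.46 to 0.22 for Vha16-3, -0.61 to 0.10 for Vha16-4, -0.78 to 0.018 for Vha16-5, -0.92 to 0.25 for VhaPPA1-2 and -0.018 to 0.094 for VhaM9.7-c. The cause of these changes was not tested. With 2 libraries per genotype and no read counts, differences of low paralogs are limited by the spread between the HP1b86 libraries.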
